A study of Mus musculus with 12 samples.

Results

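The LC3 and GABARAP conjugation genes are the 5 genes of the mouse ATG8 family (Map1lc3a, Map1lc3b, Gabarap, Gabarapl1 and Gabarapl2), the E2 enzyme Atg3 and the 4 ATG4 proteases (Atg4a, Atg4b, Atg4c and Atg4d). They were listed by symbol, with earlier results of these data known, and were matched to Ensembl identifiers, which gave 10 genes of the 49548 in the count files. All 10 passed the filter on low counts, together with 15942 genes in all. The question was whether the lower level of Map1lc3b in some MFN2 libraries was shared by its paralogs, by the enzymes that process them and by both runs of library numbers.

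RNA was sequenced from the lumbar spinal cord of mice at 30 days of age, with 1 library per mouse and no treatment. The 8 MFN2 mice, labelled CMT2A, were MitoCharc1 animals of a B6;D2 strain with the transgene Tg(Eno2-MFN2*R94Q)L51Ugfm. They carried human MFN2 with the R94Q change under the Eno2 promoter, which is active mainly in neurons, and kept their own Mfn2. The 4 WT mice carried no transgene and were labelled C57BL/6, while the study's methods call them littermates, so that the strain background of the groups is uncertain. The labels gave no sex. Xist, which is transcribed from the inactive X chromosome, was at 0.267 CPM or less in MFN2 libraries 41 and 43 and WT library 44, and at 258 to 403 CPM in the other 9, among them all of libraries 72 to 76. MFN2 libraries were numbered 41 to 43 and 72 to 76, and WT libraries 44 to 47, so that in the libraries 72 to 76 the run of numbers and the genotype cannot be told apart. Total counts ranged from 19359454 to 26738930 per library. The human transgene was not analysed here, and whether its reads were counted under mouse Mfn2 was not tested. The count of mouse Mfn2 was 206 CPM ± 12.8 (SD, n = 8) among the MFN2 mice and 213 CPM ± 15.2 (SD, n = 4) among WT mice. CPM is the count relative to a library size scaled by TMM.

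ATG8 proteins are small ubiquitin-like proteins that become attached to the lipid phosphatidylethanolamine on the growing autophagosome, the double membrane that encloses cargo for the lysosome. An ATG4 protease first trims the end of the protein to expose a glycine. The E1 enzyme ATG7, the E2 enzyme ATG3 and the ATG12-ATG5-ATG16L1 complex then join that glycine to the lipid, and ATG4 can later release it. In neurons autophagosomes form largely in distal axons and travel back to the cell body, a long route in the motor neurons of the lumbar cord. Transcript counts, as given here, do not measure lipidation or autophagic flux.

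The ends of the 5 ATG8 coding sequences are shown because they hold the codon of the glycine at which ATG4 cuts and because they show how far the paralogs differ. Each line gives the last 30 coding bases of the principal transcript in GENCODE M21 (GRCm38.p6), 5′ to 3′ with the stop codon, and capitals mark the last glycine codon.
Map1lc3a: tacgcctcccaagaaaccttcGGCttctga
Map1lc3b: gagacattcGGGacagcaatggctgtgtaa
Gabarap: tacagtgatgaaagcgtctatGGTctgtga
Gabarapl1: tacagtgatgaaagtgtctatGGAaaatga
Gabarapl2: tacagcggagagaacacttttGGCttctga
In Map1lc3b 5 codons stood between the glycine codon and the stop codon, against 1 codon in each of the other 4 genes. Over the whole coding sequence the paralogs were identical at between 57.4% of aligned bases (Map1lc3a and Gabarapl1) and 77.5% (Map1lc3a and Map1lc3b), and Gabarap and Gabarapl1 at 74.9%. The longest run of bases shared by transcripts of any pair was 17, shorter than the 75-base reads, so that reads of 1 paralog could not match another over their whole length. Copies elsewhere in the genome were closer. Map1lc3b had 4 pseudogenes that matched its coding sequence at 96.5% to 99.7% identity, and their counts summed to at most 2.55% of those of Map1lc3b in any library. Gabarapl2 had 3 such pseudogenes (at most 1.22%) and Atg4a had Atg4a-ps (at most 5.71%). Atg4a also matched Syt6 over 508 bases at 99.4% identity on the opposite strand, and Syt6, at 22.9 CPM on average, stood at 403% of the level of Atg4a. How reads were divided between a gene and its copies is not given in the sources used here.

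Before the results, 1 library stood apart. In MFN2 library 43 the 10 forebrain markers, led by Camk2a, summed to 4736 CPM, against 111 to 209 CPM in the other 11 libraries. Its 9 caudal Hox genes, led by Hoxb8, summed to 50.7 CPM against 267 to 359 CPM elsewhere. Its 6 motor neuron markers summed to 35.5 CPM against 154 to 370 CPM. Defining cord markers were thus low, though not at 0, in a library labelled as spinal cord. The main comparisons of the 10 genes that include library 43 are therefore also given without it, and the part of these markers in the results was not tested.

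Per length of merged exons, 4 of the 5 ATG8 genes were the most abundant of the 10. In RPKM, the CPM divided by the merged exon length in kilobases, Gabarapl1 stood at 93.8 ± 8.44 and Map1lc3a at 85.3 ± 7.92 (SD over 12 libraries), and their ranges overlapped. Gabarapl2 (30.7 ± 2.18 RPKM) and Gabarap (27.9 ± 2.22 RPKM) came next, again with overlapping ranges. Atg3 (18.1 ± 1.24 RPKM), Map1lc3b (17.4 ± 2.98 RPKM) and Atg4c (14.4 ± 1.49 RPKM) came after them, and the ranges of neighbours in this order overlapped. Atg4b stood at 5.48 ± 0.357 RPKM and Atg4d at 3.13 ± 0.289 RPKM, and their ranges did not meet. Atg4a was the least abundant at 2.14 ± 0.440 RPKM, with a range that overlapped that of Atg4d, and it rested on 95 to 164 counts per library. The place of Map1lc3b depended on the length used. Its merged exons cover 7517 bases and its principal transcript 2532. By principal transcripts, a length chosen after seeing the data, it stood at 51.8 ± 8.84 RPKM, next after Gabarapl1 (104 RPKM) and Map1lc3a (90.6 RPKM). By longest transcripts Map1lc3b stood at 31.7 ± 5.41 RPKM, between Gabarap (38.0 RPKM) and Atg3 (27.4 RPKM).

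Map1lc3b (ENSMUSG00000031812, chr8:121590361-121598760 on the plus strand) encodes LC3B, the ATG8 protein most used to follow autophagosomes. Its level was 138, 154, 169 and 153 CPM in WT libraries 44 to 47. In MFN2 libraries 41 and 42 it was 146 and 147 CPM, and in library 43 it was 98.7 CPM. In MFN2 libraries 72 to 76 it was 112, 113, 118, 112 and 114 CPM. The 5 libraries of the second run and library 43 thus lay below every WT library, while libraries 41 and 42 lay inside the WT range. Between all 8 MFN2 and 4 WT mice the log2 fold change was -0.35 ± 0.10 (SE, adjusted p = 0.262 from edgeR, by its quasi-likelihood test and adjusted over all genes tested), which did not pass the threshold of 0.05. Without library 43 it was -0.32 ± 0.09 (adjusted p = 0.112). In that comparison 0 genes were called (0% of those tested), with 2386 genes at an unadjusted p under 0.05 and 200 genes called by DESeq2, and 0.119% of genes were called without library 43.

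**Figure D1:**
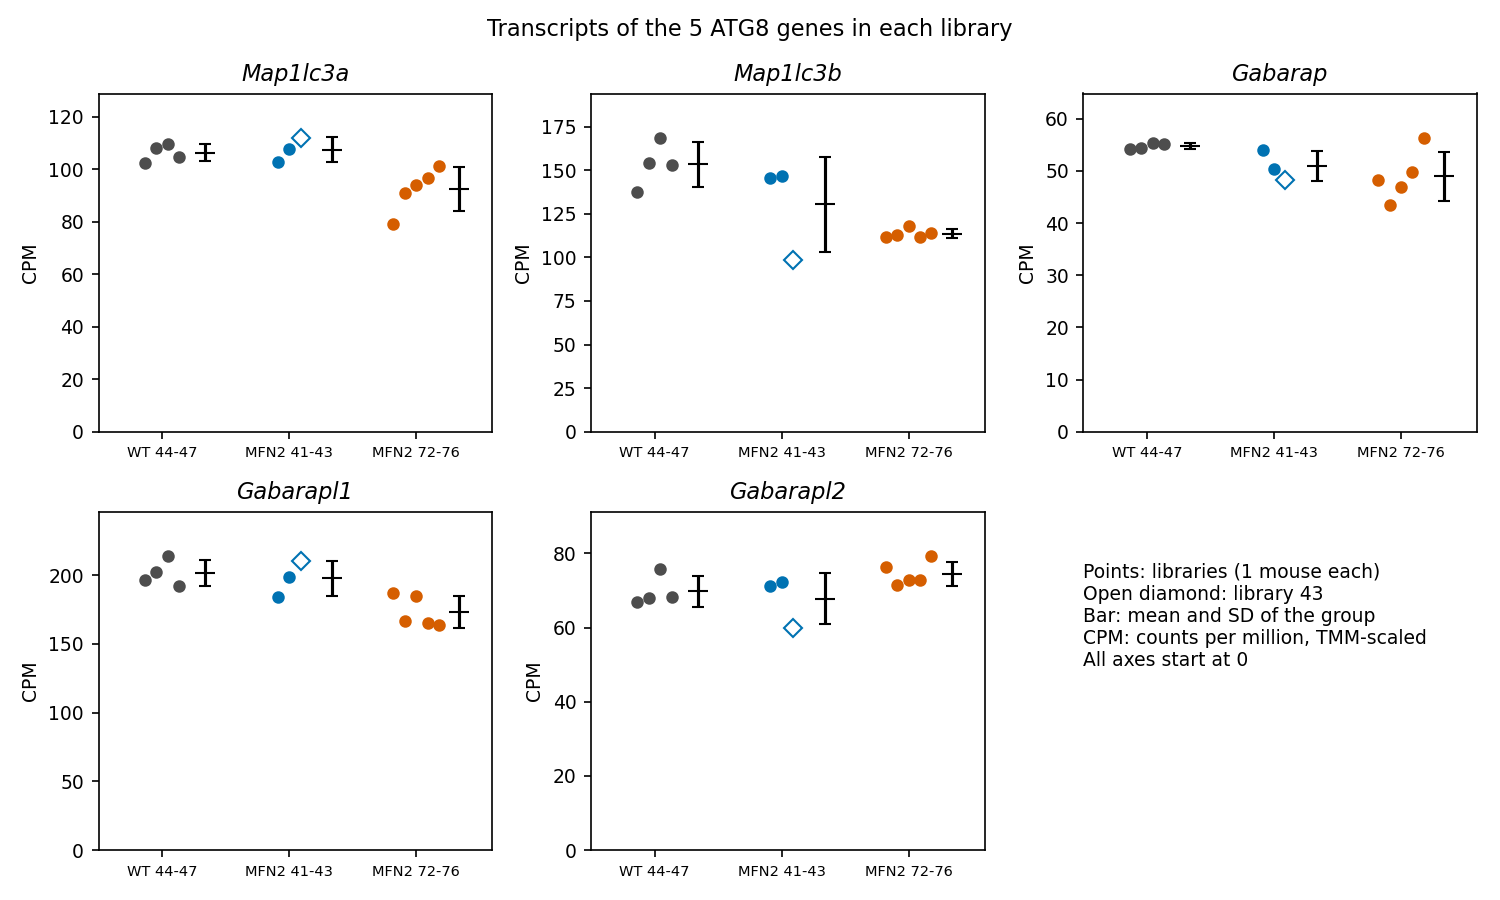
TMM-scaled CPM of the 5 ATG8 genes on the y axis in WT libraries 44 to 47, MFN2 libraries 41 to 43 and MFN2 libraries 72 to 76 on the x axis; points are libraries, the open diamond is library 43, and the bars are the mean and SD of a group. The 5 Map1lc3b values of libraries 72 to 76 sit between 112 and 118 CPM, below the lowest WT value of 138 CPM, while libraries 41 and 42 lie inside the WT range.

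Taken run by run, the lower Map1lc3b was carried by libraries 72 to 76. These libraries averaged 114 CPM ± 2.68 (SD, n = 5) against 153 ± 12.7 (n = 4) in WT, 0.743 times the WT level, and the log2 fold change of -0.43 ± 0.06 was called (adjusted p = 0.000546, edgeR). Libraries 41 to 43 differed from WT by -0.22 ± 0.15 on the log2 scale (adjusted p = 0.663), and without library 43 by -0.056 ± 0.086 (adjusted p = 0.961). Tested directly against each other, the runs differed by -0.21 ± 0.12 (libraries 72 to 76 minus 41 to 43, adjusted p = 0.34). Without library 43 that difference was -0.37 ± 0.05 and was called (adjusted p = 0.00225, edgeR), with all 5 libraries of the second run below libraries 41 and 42. Genes called between the MFN2 runs made up 2.29% of those tested, and 14.6% without library 43 (7.3% called lower in the second run), so that a call between the runs was common among genes once library 43 was left out. Both comparisons with WT used the same 4 WT libraries. Without WT library 44, which leaves only libraries with high Xist, the log2 fold change of Map1lc3b in libraries 72 to 76 was -0.48 ± 0.05 (adjusted p = 7.64e-05, edgeR).

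Map1lc3a (ENSMUSG00000027602, chr2:155276297-155278073, plus strand) encodes LC3A, the closest paralog of LC3B. It was at 103, 108, 110 and 105 CPM in WT libraries, at 103, 108 and 112 CPM in libraries 41 to 43, and at 79.1, 90.8, 94.1, 96.5 and 101 CPM in libraries 72 to 76. As for Map1lc3b, the second run lay below every WT library, but library 43 held the highest Map1lc3a value of all. The log2 fold change from WT was -0.20 ± 0.06 in libraries 72 to 76 (adjusted p = 0.0376, edgeR) and 0.031 ± 0.074 in libraries 41 to 43 (adjusted p = 0.890). The call was lost in 7 of 9 fits that left out a library (adjusted p up to 0.0880), with library sizes only and in a fit of 3 groups. The runs differed by -0.23 ± 0.09 (adjusted p = 0.155), which did not pass the threshold with or without library 43.

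Gabarapl1 (ENSMUSG00000030161, chr6:129533160-129542346, plus strand) encodes a GABARAP paralog and was the most abundant of the 10 genes per length. Its level was 196, 203, 214 and 192 CPM in WT libraries, 184, 199 and 210 CPM in libraries 41 to 43, and 187, 167, 185, 165 and 164 CPM in libraries 72 to 76. Again the second run lay below every WT library, and the first run overlapped WT. The log2 fold change was -0.21 ± 0.06 in libraries 72 to 76 (adjusted p = 0.0221, edgeR) and -0.010 ± 0.085 in libraries 41 to 43 (adjusted p = 0.971). The call was lost in 2 of 9 fits that left out a library (adjusted p up to 0.0608), with library sizes only and in a fit of 3 groups. The direct difference between the runs, -0.20 ± 0.08, was not called (adjusted p = 0.178), nor was that of -0.14 ± 0.08 without library 43 (adjusted p = 0.223).

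Gabarap (ENSMUSG00000018567, chr11:69991143-69994951, plus strand), the founding member of its subfamily, was tight in WT, at 54.3 to 55.3 CPM. It was at 54.0, 50.3 and 48.3 CPM in libraries 41 to 43 and at 48.2, 43.5, 46.9, 49.8 and 56.4 CPM in libraries 72 to 76. All MFN2 libraries but 76 were below WT. Library 76 held the highest value of all 12. The log2 fold change of -0.16 ± 0.07 in libraries 72 to 76 was not called (adjusted p = 0.0938, edgeR), and it was called when library 76 was left out (-0.21, adjusted p = 0.0154). With each library left out in turn, adjusted p ran from 0.0154 to 0.186 over 9 fits. In libraries 41 to 43 the change of -0.093 ± 0.071 was not called (adjusted p = 0.681), nor was that of -0.14 ± 0.07 over the 12 libraries (adjusted p = 0.337).

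Gabarapl2 (ENSMUSG00000031950, chr8:111940703-111953612, plus strand), which encodes GATE-16, did not share the lower level. It was at 66.9, 68.0, 75.8 and 68.2 CPM in WT libraries, at 71.1, 72.4 and 60.0 CPM in libraries 41 to 43, and at 76.4, 71.5, 72.8, 72.8 and 79.3 CPM in libraries 72 to 76. No library of the second run was below the WT range, and library 43 was the lowest of the 12. The log2 fold change from WT was 0.10 ± 0.05 in libraries 72 to 76 (adjusted p = 0.196, edgeR) and -0.025 ± 0.093 in libraries 41 to 43 (adjusted p = 0.933), the latter turning to 0.053 without library 43.

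Summed over the 5 ATG8 genes, libraries 72 to 76 held 485 to 517 CPM and WT libraries 558 to 623 CPM, with 558, 576 and 529 CPM in libraries 41 to 43. The share of Map1lc3b in that sum, which does not depend on the scaling, was 24.7% to 27.1% in WT and 22.1% to 23.3% in libraries 72 to 76. In libraries 41, 42 and 43 it was 26.1%, 25.5% and 18.7%. The share in every library of the second run thus lay below the WT range, as the level did, and library 43 held the lowest share. No test was made of these sums, since the genes were chosen with earlier results known.

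Atg3 (ENSMUSG00000022663, chr16:45158785-45188538, plus strand), the E2 enzyme that hands ATG8 to the lipid, stood at 53.4 to 61.9 CPM in WT, with a median of 59.0. It was at 57.1, 59.5 and 47.8 CPM in libraries 41 to 43 and at 54.8 to 62.1 CPM in libraries 72 to 76. The groups overlapped, and the lowest value was that of library 43. The log2 fold changes from WT were -0.075 ± 0.100 in the first run (adjusted p = 0.789, edgeR) and -0.026 ± 0.055 in the second (adjusted p = 0.769).

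Of the ATG4 proteases, Atg4b and Atg4c were the most abundant per length. Atg4b (ENSMUSG00000026280, chr1:93751500-93790610, plus strand), whose product cleaves all ATG8 proteins, was at 45.3 to 50.8 CPM in WT, at 40.5 to 46.9 CPM in libraries 41 to 43 and at 40.4 to 46.3 CPM in libraries 72 to 76. It was lower than every WT library in 4 of 8 MFN2 libraries, and its log2 fold changes of -0.12 ± 0.09 and -0.087 ± 0.058 in the first and second run were not called (adjusted p = 0.672 and 0.296, edgeR). Atg4c (ENSMUSG00000028550, chr4:99193934-99259787, plus strand) averaged 49.3 CPM ± 5.16 in WT (SD, n = 4) and was at 45.5 to 51.7 CPM in libraries 72 to 76, a log2 fold change of -0.0086 ± 0.0692 (adjusted p = 0.946). Its lowest value, 36.1 CPM, was that of library 43, against 52.2 and 50.1 CPM in libraries 41 and 42. Atg4a (ENSMUSG00000079418, chrX:140956907-141164270, plus strand), which is X-linked and whose product acts mainly on GABARAP proteins, was at 4.61 to 6.77 CPM in WT and at 4.09 to 7.68 CPM in MFN2 libraries. Its log2 fold change of -0.11 ± 0.18 over all 12 libraries (adjusted p = 0.787) had the widest error of the 10 genes, and it ranged from -0.21 (without 46) to -0.041 (without 44) with a library left out, at -0.068 without library 43. By run it was -0.26 ± 0.21 in libraries 41 to 43 (adjusted p = 0.689) and -0.014 ± 0.171 in libraries 72 to 76 (adjusted p = 0.964).

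Atg4d (ENSMUSG00000002820, chr9:21265293-21277772, plus strand) encodes the remaining ATG4 protease. It was at 24.6, 25.3, 24.6 and 25.7 CPM in WT libraries, at 20.9, 23.0 and 19.2 CPM in libraries 41 to 43, and at 21.5, 20.4, 21.6, 21.8 and 24.1 CPM in libraries 72 to 76. All 8 MFN2 libraries, of both runs, lay below all 4 WT libraries. Of the 10 genes, only Atg4d had groups that did not overlap over the 12 libraries, also without library 43. Such separation was found in 2.04% of all genes tested (1.07% with MFN2 lower), and in 2.85% without library 43 (1.48% lower). The log2 fold change over the 12 libraries was -0.21 ± 0.07 (adjusted p = 0.262, edgeR), or -0.19 ± 0.06 without library 43 (adjusted p = 0.127), with -0.23 ± 0.09 in the first run (adjusted p = 0.635) and -0.19 ± 0.06 in the second, where it was called (adjusted p = 0.0421). That call was lost in 7 of 9 fits that left out a library (adjusted p up to 0.0917). The runs differed by 0.047 ± 0.087 (adjusted p = 0.775), and by -0.0086 ± 0.0873 without library 43 (adjusted p = 0.960). Atg4d shares 1405 of its 7264 exonic bases with Kri1, a gene on the opposite strand, and reads of the pair may not have been told apart. The study's methods name a stranded library kit and the labels a SMARTER kit with no mention of strand, and no strand setting of the counting is given. Kri1, singled out after its values were seen, was at 18.3 to 20.5 CPM in WT and 20.2 to 26.6 CPM in MFN2 libraries, with a log2 fold change of 0.25 ± 0.07 in libraries 72 to 76 (adjusted p = 0.0313), opposite in sign to that of Atg4d. That call was lost in 5 of 9 fits that left out a library (adjusted p up to 0.0835).

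**Figure D2:**
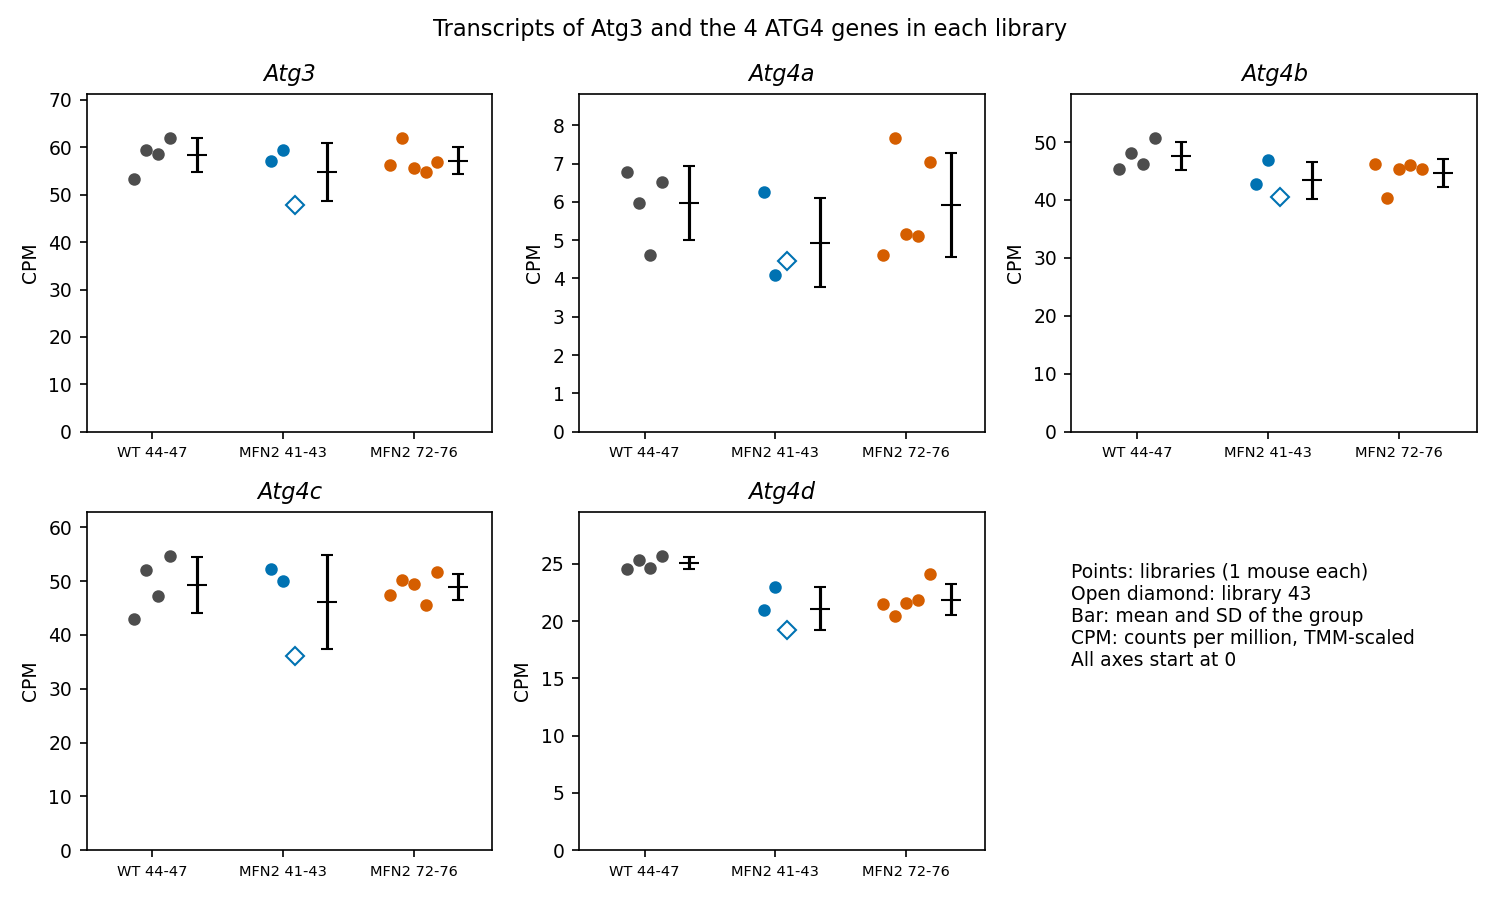
TMM-scaled CPM of Atg3 and the 4 ATG4 genes on the y axis in the same 3 groups of libraries on the x axis; points are libraries, the open diamond is library 43, and the bars are the mean and SD of a group. The 4 WT values of Atg4d lie between 24.6 and 25.7 CPM, above all 8 MFN2 values, while the groups overlap for the other 4 genes.

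Taking the 10 genes as a list, 4 were called in libraries 72 to 76 against WT, all lower (Map1lc3b, Gabarapl1, Map1lc3a and Atg4d). With a library left out the count ran from 1 (without 46 or 75) to 5 (without 76), and in a fit of 3 groups only Map1lc3b was called. In the same comparison 23.5% of all genes tested were called and 12.2% were called lower. The median log2 fold change of the 10 genes was -0.12, against 0.0045 over all genes tested. The lower Map1lc3b was known when the genes were listed, and of the other 9 genes 3 were called, with a median of -0.087. The same 4 genes were those that did not overlap WT in these libraries, as did not 19.7% of all genes (10.2% lower). By role, 3 of 5 ATG8 genes, 0 of 1 E2 enzyme and 1 of 4 ATG4 proteases were called. In libraries 41 to 43 against WT, 0 of the 10 genes were called, where 0.00627% of all genes (1 gene) were called, with 1 of the 10 and 1148 of all genes at an unadjusted p under 0.05. Without library 43 it was also 0 of the 10, with log2 fold changes from WT of -0.0039 for Map1lc3a, -0.060 for Gabarapl1, -0.060 for Gabarap, 0.011 for Atg3, -0.073 for Atg4b, 0.067 for Atg4c, -0.20 for Atg4a and -0.18 for Atg4d. Atg4d thus kept the lowest value but for Atg4a. Between the runs, 0 of the 10 were called with library 43 (2.29% of all genes) and only Map1lc3b without it (14.6% of all genes), a count near the background. The called genes of libraries 72 to 76 split into 1812 higher and 1941 lower, and scaling by library size alone gave 2823 higher among 4169, so that calls of small differences depended on the scaling. Under that scaling Map1lc3b was still called lower (-0.36, adjusted p = 0.000835, edgeR), Map1lc3a, Gabarapl1 and Atg4d were not called, and Gabarapl2 was called higher (0.16, adjusted p = 0.0272).

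**Figure D3:**
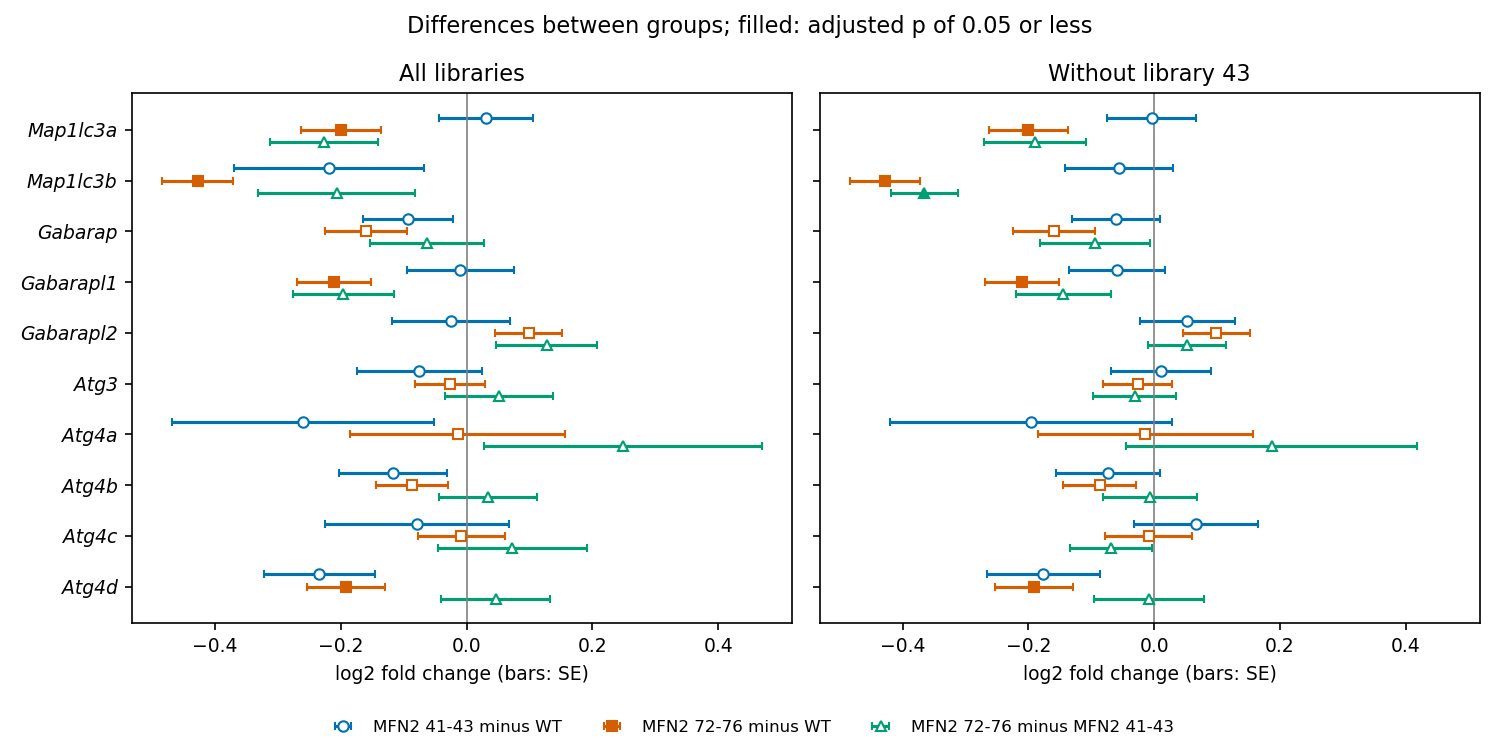
Log2 fold change with its SE (x axis) of the 10 genes (y axis) for MFN2 41 to 43 minus WT, MFN2 72 to 76 minus WT, and MFN2 72 to 76 minus MFN2 41 to 43, with all libraries on the left and without library 43 on the right; filled symbols have an adjusted p of 0.05 or less. For Map1lc3b the first run moves from -0.22 to -0.056 and the difference between the runs from -0.21 to -0.37 once library 43 is left out.

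Astrocyte and microglia markers were lower in the libraries in which 3 ATG8 genes were called lower. The 5 astrocyte markers, led by Gfap, summed to 1952 to 3133 CPM in libraries 72 to 76 and to 3442 to 4454 CPM in WT, and 3 of the 5 were called lower. In libraries 41, 42 and 43 the astrocyte sum was 4860, 2733 and 1529 CPM. The 5 microglia markers, led by Csf1r, summed to 78.7 to 101 CPM in libraries 72 to 76 against 105 to 140 CPM in WT, and all 5 were called lower, while libraries 41, 42 and 43 had 164, 102 and 166 CPM. The sum of the 3 oligodendrocyte precursor markers, led by Gpr17, went the other way. It was 231 to 265 CPM in libraries 72 to 76 and 190 to 223 CPM in WT. Gpr17 was called higher (0.41 ± 0.09, adjusted p = 0.00694, edgeR). Pdgfra was higher (0.16 ± 0.06, adjusted p = 0.0697) and Cspg4 lower (-0.14 ± 0.07, adjusted p = 0.171), and neither was called. The sum was 187 to 220 CPM in libraries 41 and 42 and 213 CPM in library 43. Neuron markers, led by Snap25, summed to 2344 to 2647 CPM in libraries 72 to 76 and 2497 to 2929 CPM in WT, and 1 of the 5, Syt1, was called, as higher. No marker of these lists was at 0 in any library. In bulk tissue fewer cells of a type and less RNA per cell cannot be told apart, and the part of these markers in the results was not tested.

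The rest of the autophagy machinery, 61 genes in 7 lists by role, was tested in the same fits. Against WT, 9 of the 61 were called in libraries 72 to 76, 2 higher and 7 lower, with a median log2 fold change of -0.033, where 11.4% of all genes were called higher and 12.2% lower. In libraries 41 to 43, over all 12 libraries and between the runs 0 of the 61 were called, with 0, 7 and 11 at an unadjusted p under 0.05 (edgeR), where 1148, 2386 and 3903 of the 15942 genes tested were.

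Among the 7 genes of the conjugation system outside the 10, 2 were called in libraries 72 to 76, both higher, where 11.4% of all genes were called higher. Called or not, 4 of the 7 had a log2 fold change above 0 and 3 below. Atg16l1, whose product places the conjugation complex on the membrane, was at 32.1 to 37.8 CPM in WT and 39.4 to 44.4 CPM in libraries 72 to 76, without overlap, a log2 fold change of 0.31 ± 0.06 (adjusted p = 0.00429, edgeR). Libraries 41 and 42 were at 34.1 and 36.4 CPM, and library 43 at 48.2 CPM. Tecpr1, which binds the ATG12-ATG5 conjugate, rose by 0.14 ± 0.05 (adjusted p = 0.0441), a call lost in 6 of 9 fits that left out a library. It was at 93.1 to 101.5 CPM in WT and 101.9 to 111.7 CPM in all 8 MFN2 libraries, a separation found in the higher direction in 0.979% of all genes, and its change of 0.13 ± 0.05 over the 12 libraries was not called (adjusted p = 0.279). Atg7, the E1 enzyme, was at 16.6 to 19.1 CPM in WT and 16.6 to 17.2 CPM in libraries 72 to 76 (-0.061 ± 0.064, adjusted p = 0.525).

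The 7 genes called lower in libraries 72 to 76 were spread over the other 6 lists, where 12.2% of all genes were called lower. Wipi1, whose product reads the lipid mark on the forming autophagosome, was at 41.7 to 48.6 CPM in WT and 29.4 to 37.6 CPM in libraries 72 to 76, and fell by 0.44 on the log2 scale (SE 0.08, adjusted p = 0.00204, edgeR). It averaged 46.4 CPM in libraries 41 and 42 and stood at 30.2 CPM in library 43, so that, as for Map1lc3b, only library 43 of the first run was below the WT range. Bnip3l, a mitophagy receptor on the outer mitochondrial membrane that binds ATG8 proteins, changed by -0.36 ± 0.08 (adjusted p = 0.00768). Fyco1, an LC3-binding adaptor for microtubule transport, changed by -0.28 ± 0.06 (adjusted p = 0.00601) and was below every WT library in all 8 MFN2 libraries, with a value of 51.4 CPM in library 43. Over the 12 libraries its change of -0.31 ± 0.12 was not called (adjusted p = 0.279), nor was that of -0.24 ± 0.06 without library 43 (adjusted p = 0.0842), and 1.07% of all genes were separated in this direction. Atg101 of the ULK1 complex changed by -0.28 ± 0.09 (adjusted p = 0.0364) and Rubcn, which restrains the class III PI3 kinase, by -0.27 ± 0.08 (adjusted p = 0.0298), and with a library left out these calls were lost in 7 of 9 and 6 of 9 fits. Vps41 of the HOPS tethering complex changed by -0.18 ± 0.05 (adjusted p = 0.0127).

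Tfeb, a transcription factor that drives lysosomal and autophagy genes, changed by -0.31 ± 0.10 in libraries 72 to 76 (adjusted p = 0.0447, edgeR). It was at 21.6 to 29.4 CPM in WT, at 28.3, 22.7 and 10.7 CPM in libraries 41, 42 and 43, and at 19.0 to 25.2 CPM in libraries 72 to 76, so that the groups overlapped. The call was lost in 6 of 9 fits that left out a library (adjusted p up to 0.144). Sqstm1, which encodes the LC3-binding receptor p62, was at 252 to 310 CPM in WT and 276 to 319 CPM in libraries 72 to 76 (0.055 ± 0.068, adjusted p = 0.600).

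**Figure D4:**
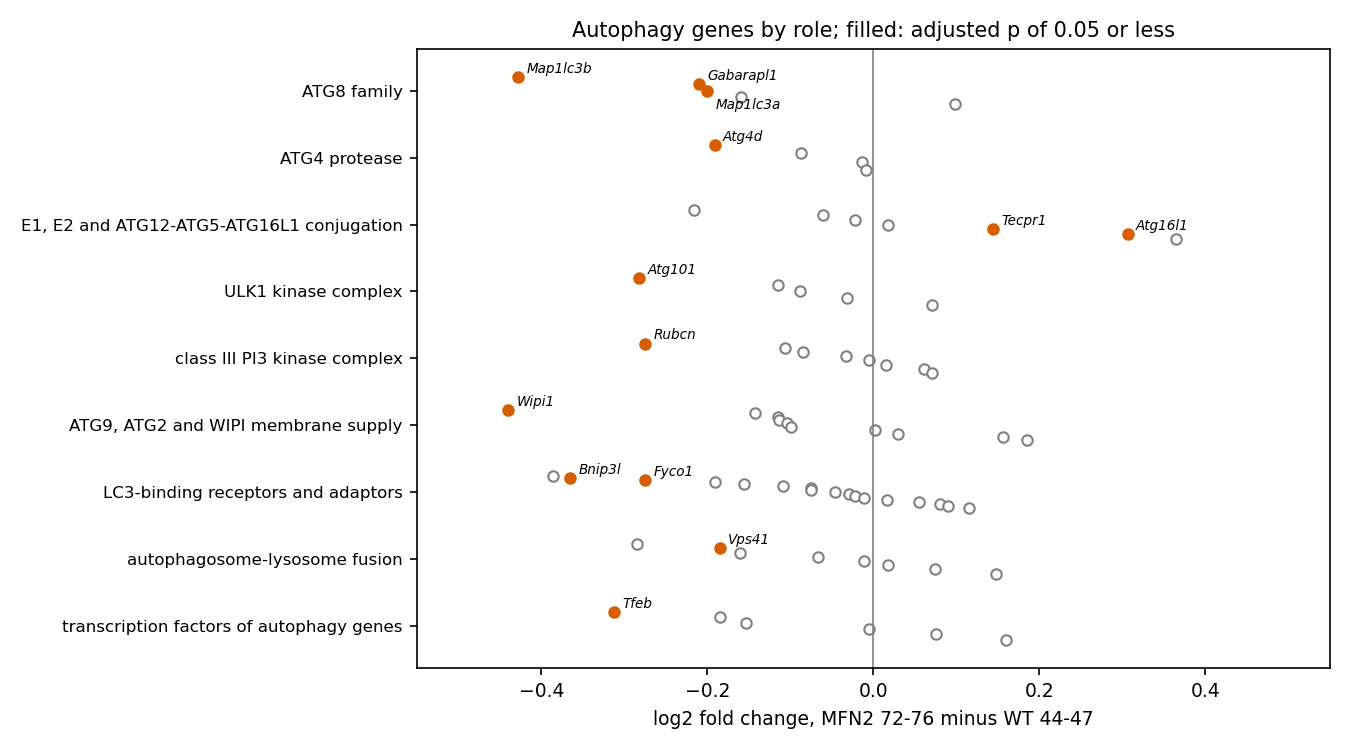
Log2 fold change of MFN2 libraries 72 to 76 minus WT (x axis) for the 5 ATG8 genes, the 4 ATG4 genes and 61 other autophagy genes in 7 lists by role (y axis); each point is a gene, and filled points have an adjusted p of 0.05 or less. The 2 called genes of the conjugation list lie above 0 and the 7 of the other 6 lists below 0. Of all genes tested, 11.4% were called higher and 12.2% lower. Map1lc3b at -0.43 and Wipi1 at -0.44 are the lowest points.

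Without library 43, 3 of these 9 genes also differed between the MFN2 runs, where 14.6% of all genes were called. The 9 genes were picked by their calls against WT in the same libraries of the second run. The share of all genes is therefore not a like background for them, and the count of 3 cannot be read as an excess. Wipi1 differed by -0.50 ± 0.09 (adjusted p = 0.00660, edgeR), Bnip3l by -0.29 ± 0.07 (adjusted p = 0.0233) and Atg16l1 by 0.26 ± 0.07 (adjusted p = 0.0289), while Fyco1 (-0.12 ± 0.06, adjusted p = 0.229) and Tfeb (-0.28 ± 0.12, adjusted p = 0.151) were not called. Rubcn, Vps41, Atg101 and Tecpr1 were not called either (adjusted p of 0.0990, 0.101, 0.134 and 0.819). These differences, like that of Map1lc3b, were between MFN2 mice of separate library runs and not between genotypes.

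The motif CACGTG, the core of the sites bound by TFEB and related factors, was searched on both strands in windows from 250 bases before to 50 bases after the RefSeq start of genes (GRCm38.p6). It was found in 7.15% of 32851 windows. Of the 9 members that had a window, only Atg3 held it, and Atg3 was not called in any comparison. The stretch is shown as an example, chr16:45158727-45158771 on the plus strand, with both copies in capitals.
Atg3: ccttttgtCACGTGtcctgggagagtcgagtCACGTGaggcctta
The copies began 94 and 71 bases before the RefSeq start. The FOXO motif GTAAACA, in 3.65% of all windows, was found in 0 windows of the members.

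Over the 12 libraries, the 5 genes whose log2 CPM followed Map1lc3b most closely were Rell2, Mettl7a1, M6pr, Ldhb and Hspe1. Pearson's r was 0.98 for Rell2, Mettl7a1, M6pr and Ldhb and 0.97 for Hspe1. Without library 43 it lay between 0.96 and 0.99. M6pr encodes a mannose 6-phosphate receptor, Ldhb a lactate dehydrogenase subunit and Hspe1 a mitochondrial chaperonin. M6pr, for example, was at 76.9 to 87.8 CPM in WT, at 84.4 and 83.8 CPM in libraries 41 and 42, at 57.1 CPM in library 43 and at 66.1 to 69.1 CPM in libraries 72 to 76. The 5 genes were picked by r over these same libraries, so that their likeness to Map1lc3b was set by the choice. The libraries also share their scaling and the split between runs, so that r describes these samples only. Of the other 9 members, Atg4d was the most alike, with r of 0.73, and 1428 genes had a higher r. Without library 43 r was 0.63 for Atg4d, below Gabarapl1 (0.84) and Map1lc3a (0.79). Gabarapl2 had r of 0.12, or -0.41 without library 43.

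**Figure D5:**
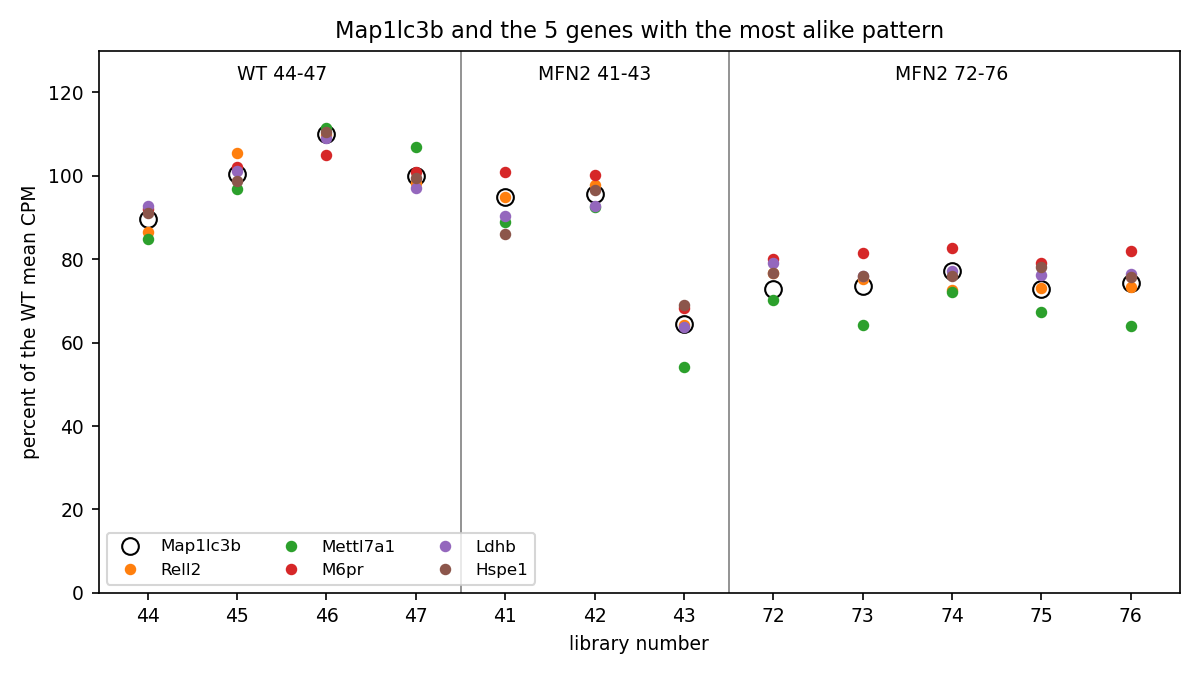
CPM as a percent of the WT mean (y axis) of Map1lc3b and the 5 genes with the highest Pearson r to it in each of the 12 libraries (x axis); each point is a gene in a library. All 6 genes are lower in library 43 and in libraries 72 to 76 than in libraries 41 and 42, a likeness for which the 5 were picked.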

How the data were processed

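The authors trimmed paired-end reads of 75 bases, aligned them to GRCm38.p6 with STAR, per the study's methods, and deposited, for each of 12 libraries, unnormalized whole-number counts by Ensembl gene. The counting tool, strand setting and annotation are not given in the sources used here. Names and lengths came from GENCODE M21, in which 49289 of 49548 genes were found. Genes above 1 CPM in at least 3 libraries (15942) entered TMM scaling and the quasi-likelihood test of edgeR 4.0.16 under R 4.3.3 (legacy form, robust, Benjamini-Hochberg adjustment over all genes, threshold 0.05). SEs came from the F statistic, and log2 CPM used a prior count of 2. The fit was tested on simulated data. Alternatives were DESeq2 1.42.0, other scalings, no filter, Xist as a covariate, a fit of 3 groups and each library left out. Near copies were searched with blastn 2.17.0. Any 2 libraries of the same genotype differed beyond counting noise, with a chi-square of at least 5.34 per tested gene. Members, lists and comparisons were chosen with earlier results of these data known. The text names the 10 members, the 3 largest called changes of each list, Atg7, Sqstm1, Mfn2 and the 5 nearest patterns. The methods call WT mice littermates, but the labels do not tell which mice shared a litter, so that litter could not enter the fits. The oligodendrocyte marker list is not reported here.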

Additional observations from a re-analysis of the deposited data

Results flagged for a closer look

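In groups of 4 to 10 libraries the gap of the highest or lowest library to its neighbour was divided by the group's range and compared with Dixon's 95% critical value, for 38 groups, of which 7 passed where chance gives about 1.9. Library 43 accounted for 5 of the 7.

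Among MFN2 mice, library 43 was the lowest for Gabarapl2 (60.0 CPM, gap of 0.576 of the range), for Atg4c (36.1 CPM, 0.585) and for the sum of the 4 ATG4 genes (100.4 CPM, 0.656). It was the highest for the summed forebrain markers (4736 CPM, 0.986) and the lowest for the summed caudal Hox genes (50.7 CPM, 0.798). Among WT mice, library 46 was the highest for Gabarapl2 (75.8 CPM, 0.851) and library 45 for the summed astrocyte markers (4454 CPM, 0.877).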

How the results depend on the processing

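No paired analysis was possible because the labels do not tell which MFN2 and WT mice shared a litter. The count of genes called over 12 libraries was 0, and 200 with DESeq2, 4 with Xist as a covariate and 0 to 19 with each library left out (19 without 43, 7 without 41). In libraries 41 to 43 against WT it was 1, and 4 with DESeq2, 0 with no filter, 0 in the fit of 3 groups and 0 to 2 with libraries left out. In libraries 72 to 76 against WT it was 3753, and 1224 in the fit of 3 groups and 2355 (without 45) to 4517 with libraries left out. Between the MFN2 runs it was 365, and 1775 with DESeq2, 1339 in the fit of 3 groups and 26 (without 74) to 2325 (without 43) with libraries left out. Of the 10 members, 4 were called in libraries 72 to 76 against WT, 2 with library sizes only, 1 (Map1lc3b) in the fit of 3 groups and 1 to 5 with libraries left out. Between the runs the members called were 0 to 1. Map1lc3b in libraries 72 to 76 was called under every alternative run, from -0.48 to -0.36, with adjusted p up to 0.0302 in the fit of 3 groups (edgeR). The calls of Map1lc3a and Atg4d were lost in 7 of 9 fits that left out a library, and that of Gabarapl1 in 2 of 9. Of the other autophagy genes named, the calls of Atg101 (7 of 9), Tecpr1, Rubcn and Tfeb (6 of 9 each) were lost, with adjusted p up to 0.114, 0.113, 0.0902 and 0.144 (edgeR).

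Between the runs Map1lc3b ranged from -0.37 (without 43, where it was called) to -0.13 and kept its sign. Other log2 fold changes, near 0, changed sign. With library sizes only, Atg4c was 0.0092 over 12 libraries, and in libraries 72 to 76 against WT Atg3 was 0.040, Atg4a 0.048, Atg4c 0.057 and Atg7 0.0044. With libraries left out, Atg4c over 12 libraries ranged from -0.10 to 0.011. In libraries 41 to 43 against WT the ranges were -0.0039 to 0.069 for Map1lc3a, -0.060 to 0.044 for Gabarapl1, -0.078 to 0.053 for Gabarapl2, -0.14 to 0.011 for Atg3 and -0.17 to 0.067 for Atg4c. In libraries 72 to 76 against WT they were -0.13 to 0.061 for Atg4a, -0.075 to 0.041 for Atg4c and -0.0084 to 0.085 for Sqstm1. Between the runs they were -0.031 to 0.098 for Atg3, -0.0071 to 0.074 for Atg4b, -0.069 to 0.15 for Atg4c and -0.0086 to 0.096 for Atg4d. The cause was not tested. At these depths Atg4a, with 95 to 164 counts per library, was measured least precisely.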
